A study of Mus musculus with 4 samples.

Results

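The genes described here are 34 markers of Bergmann glia and other astrocytes of the cerebellum. They were taken by name, with earlier results of these data known, and 34 of 34 were found among the 55341 genes of the deposited count tables. All 34 passed the filter on low counts that left 16617 genes for testing, so no member entered the test only through the group in which it was high. A group of 30 members marks mature astroglia, and 4 members (Fabp7, Tnc, Vim and Sox2) mark immature or radial glia.

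RNA was measured by sequencing in cerebella of mice at postnatal day 14 (P14), in 2 Kdm6b-cKO and 2 WT animals. Kdm6b-cKO mice carried Atoh1-Cre and loxP-flanked Kdm6b on both alleles (Atoh1-Cre; Kdm6b fl/fl), and their WT littermates carried the same floxed alleles without Cre (Kdm6b fl/fl). Each library came from an individual mouse, per the methods of the study. KDM6B is a demethylase of histone H3 that acts on its repressive mark H3K27me3. Atoh1 is expressed in precursors of granule neurons, and astroglia do not descend from Atoh1-expressing cells, so the gene was targeted in the granule neuron lineage, and genes of another lineage were read here in RNA of the whole tissue.

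Bergmann glia are radial astrocytes whose cell bodies lie among Purkinje cells and whose fibres reach the surface of the cerebellar cortex. Newborn granule neurons migrate along these fibres, and the mature processes wrap synapses and clear glutamate from them. As astroglia mature they lower genes of radial glia such as Fabp7 and raise transporters, gap junction proteins and enzymes of transmitter turnover. Several members are not exclusive to astroglia: Apoe is also made by microglia, Bcan and Ptprz1 by oligodendrocyte precursors, and Vim by vessels and meninges. The tissue was whole cerebellum, so fewer cells of a type and less RNA per cell cannot be told apart in any value below.

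The promoters of 4 members past the threshold are shown first. Fabp7 was the member that rose, Dao had the largest fall, and Gdf10 and Slc1a3 are markers of Bergmann glia that fell. Hopx, which also marks Bergmann glia, was higher in both cKO libraries without passing the threshold. Each line gives the 250 bases before the start annotated by RefSeq on GRCm38.p6, read 5′ to 3′ on the strand of the gene. RefSeq starts can differ from those of GENCODE, and the base after the Slc1a3 start lies outside any GENCODE transcript of that gene. The windows are chr10:57784673-57784922 (plus strand) for Fabp7, chr5:114003485-114003734 (plus strand) for Dao, chr14:33923337-33923586 (plus strand) for Gdf10 and chr15:8710808-8711057 (minus strand) for Slc1a3. Capitals mark matches on either strand to TGGGAA, the core bound by the Notch effector RBPJ, to TTGGC, a half-site of nuclear factor I (NFI), and to ACAAT, a core bound by SOX proteins.
Fabp7: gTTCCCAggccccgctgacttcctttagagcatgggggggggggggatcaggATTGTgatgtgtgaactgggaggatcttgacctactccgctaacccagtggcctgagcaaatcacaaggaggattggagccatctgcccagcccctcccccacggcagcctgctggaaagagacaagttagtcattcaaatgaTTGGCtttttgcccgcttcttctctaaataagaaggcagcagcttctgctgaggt
Dao: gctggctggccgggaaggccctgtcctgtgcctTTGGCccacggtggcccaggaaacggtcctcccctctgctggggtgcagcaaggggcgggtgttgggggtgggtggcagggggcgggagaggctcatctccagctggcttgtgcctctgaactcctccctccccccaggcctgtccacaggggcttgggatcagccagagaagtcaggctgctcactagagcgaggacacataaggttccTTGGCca
Gdf10: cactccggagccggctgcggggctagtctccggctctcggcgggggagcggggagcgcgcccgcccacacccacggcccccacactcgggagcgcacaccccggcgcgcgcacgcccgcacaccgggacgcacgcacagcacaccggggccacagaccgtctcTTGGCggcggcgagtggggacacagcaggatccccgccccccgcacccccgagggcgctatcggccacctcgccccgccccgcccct
Slc1a3: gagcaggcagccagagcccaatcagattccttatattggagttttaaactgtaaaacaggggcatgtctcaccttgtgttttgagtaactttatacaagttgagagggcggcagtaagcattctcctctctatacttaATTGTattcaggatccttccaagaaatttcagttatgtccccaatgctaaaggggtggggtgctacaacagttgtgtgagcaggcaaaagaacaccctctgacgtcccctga

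In the Fabp7 window the RBPJ match began 249 bases before the start, the SOX match 198 bases and the NFI match 55 bases before it. The Gdf10 window held an NFI match 87 bases before its start, and the Slc1a3 window a SOX match 112 bases before its start. Dao has 3 RefSeq starts, of which the most upstream is shown, and its window held NFI matches, the first 217 bases before the start. A gene with several starts was counted as holding a motif where any of its windows did, whereas the shares of all promoters count windows. RefSeq promoters were matched for 29 of 34 members, and for 9 of the 10 past the threshold. The RBPJ core was present in 9 of these 29 member promoters, against 21.6% of 32851 promoters of the same length. The NFI half-site was present in 18 of 29, against 41.5% of all, and the SOX core in 5 of 29, against 27.7%. Of the 9 promoters of members past the threshold, 3 held the RBPJ core, 7 the NFI half-site and 2 the SOX core. Matches of 1 motif on opposite strands may overlap, and a match describes letters and not a bound site.

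Across the 34 members the picture was of moderate falls in mature glial genes beside a rise of Fabp7. At an adjusted p under 0.05, 9 members fell and 1 rose in Kdm6b-cKO cerebellum. That is 26.5% of members lower and 2.94% higher, against 2.17% lower and 1.87% higher among all genes tested. The median log2 fold change was -0.14 over the 34 members, against 0.00 over all genes. Both cKO libraries lay below both WT libraries for 20 members and above both for 5, where 23.2% of all genes separated in each direction. Tests were by edgeR's quasi-likelihood method with Benjamini-Hochberg adjustment over all 16617 genes, and no test was made of the members as a list. The members were chosen with earlier results of these data known, so these shares describe this list only.

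The calls depended on having all 4 libraries. With 1 library left out, 3 members were past the threshold without WT 1 (Fabp7, Atp1b2 and Dao) and 4 without WT 2 (Slc1a3, Slc1a2, Fabp7 and Ndrg2). None was past it by edgeR without cKO 1 or without cKO 2, when no gene of the whole table passed. At an unadjusted p under 0.05, 16 members were lower and 4 higher without cKO 1, where 6.98% of all genes were lower and 6.41% higher. Without cKO 2, 7 members were lower and 1 higher, where 4.99% of all genes were lower and 4.91% higher. DESeq2 called 7 members, all lower (1.1% of all genes were lower by that test), and did not call Fabp7, S100b or Gjb6. Without the filter on low counts edgeR called none of the members, with 16 lower and 4 higher at an unadjusted p under 0.05 (5.25% and 4.38% of all genes). In the fit to all 4 libraries with the filter, 8.5% of all genes were lower and 7.81% higher at an unadjusted p under 0.05, which is the background of the unadjusted counts given for each role. The 10 called members kept their sign under all 12 alternatives tried.

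**Figure D1:**
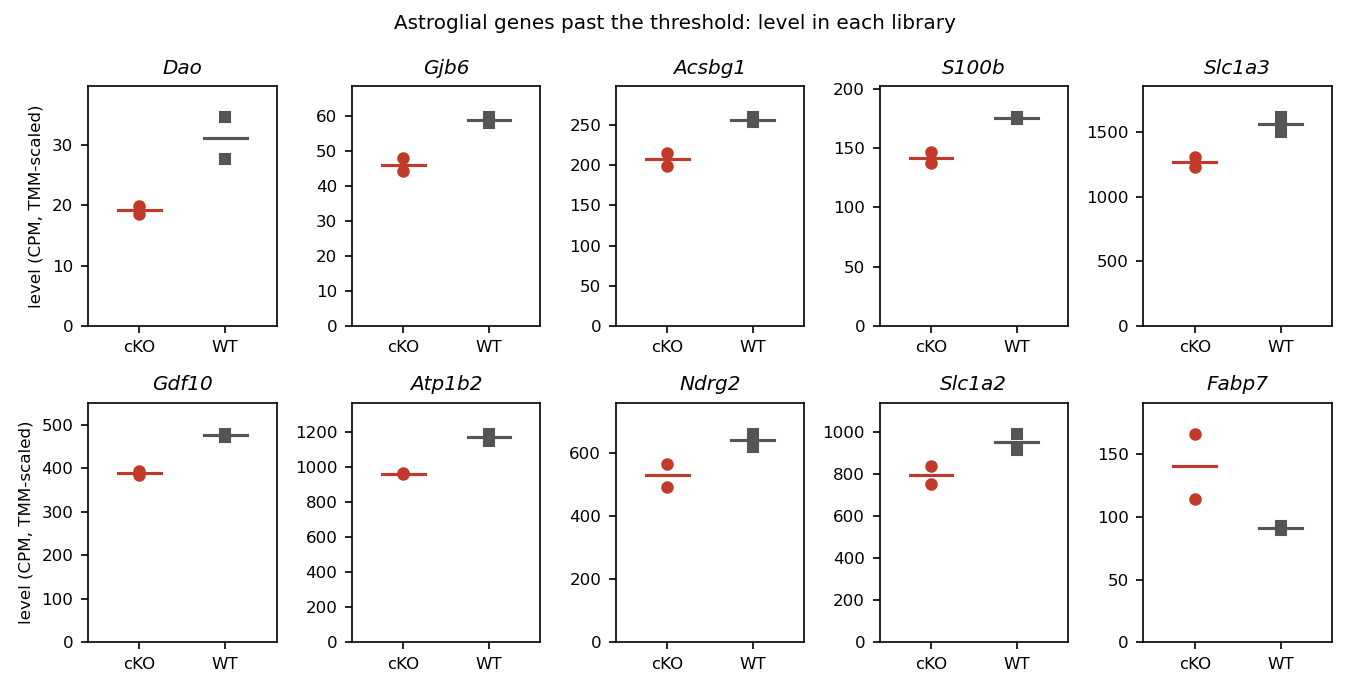
Levels (CPM, scaled by TMM, axes from 0) of the 10 members past the threshold in the 2 Kdm6b-cKO libraries (red circles) and the 2 WT libraries (grey squares). Horizontal lines are group means; the groups do not overlap for any of the 10, and Fabp7 is the one that is higher in cKO.

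The libraries held 8811849 to 9892363 counts in genes, and members had 177 to 16278 counts per library. Kdm6b itself was at 127 and 119 CPM in cKO 1 and cKO 2, against 154 and 154 CPM in WT 1 and WT 2. This fall was 0.33 ± 0.08 on the log2 scale (SE, adjusted p = 0.0162 by edgeR) in tissue where only part of the cells carried Cre. By the methods of the study, the loxP sites flank only the exons that encode the catalytic domain. Counts were taken over all exons, so reads of the remaining exons still count, and the fall does not measure the extent of deletion. CPM are counts relative to the size of the library, scaled here by the trimmed mean of M-values (TMM). By Xist and Y-linked genes WT 1 looked male and the remaining 3 libraries looked female, so sex and genotype were partly joined. Choroid plexus genes summed to 685 CPM in cKO 1, against 36.1 to 42.9 CPM in the other 3 libraries.

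Members for transmitter uptake and turnover came first in the functions of astroglia, and 3 of 7 fell with none higher (median log2 fold change -0.18). At an unadjusted p under 0.05, 4 of the 7 were lower and none higher, and DESeq2 called 3 lower and none higher. Slc1a3 encodes GLAST, the main glutamate transporter of Bergmann glia. It was at 1307 and 1228 CPM in cKO 1 and cKO 2, against 1616 and 1506 CPM in WT 1 and WT 2. Both cKO libraries lay below both WT libraries, and the log2 fold change was -0.30 ± 0.07 (SE, adjusted p = 0.0119, edgeR).

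Slc1a2 encodes GLT-1, the other glial glutamate transporter. It was at 836 and 753 CPM in cKO 1 and cKO 2, against 991 and 912 CPM in WT 1 and WT 2. The groups did not overlap, and the fall was close to the threshold (-0.26 ± 0.07, adjusted p = 0.0488). Slc1a2 lost its call under DESeq2 size factors, under library size alone, under the stricter filter on low counts and without WT 1, where it was -0.20. Glul, the glutamine synthetase that converts the glutamate taken up, was at 584 and 519 CPM in cKO libraries and at 637 and 611 CPM in WT libraries, and did not pass (-0.18, adjusted p = 0.218).

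Dao encodes D-amino-acid oxidase, a peroxisomal enzyme that degrades D-serine and is known in cerebellar astroglia. It was at 18.5 and 19.8 CPM in cKO 1 and cKO 2, against 27.6 and 34.6 CPM in WT 1 and WT 2. The change was the largest fall of any member, -0.70 ± 0.14 on the log2 scale (95% interval -0.99 to -0.40, adjusted p = 0.00601), and the level fell by 38.3%. The WT libraries were further apart than the cKO libraries, and the value was -0.85 without WT 1 and -0.53 without WT 2.

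The transporters for GABA, glycine and small neutral amino acids did not pass the test. Slc6a11, the GABA transporter GAT-3, was at 77.7 and 74.9 CPM in cKO libraries and at 76.4 and 66.0 CPM in WT libraries (95% interval of the log2 fold change -0.09 to 0.29). Slc7a10, the transporter Asc-1 for small neutral amino acids, was at 52.5 and 51.5 CPM in cKO libraries and at 50.3 and 50.3 CPM in WT libraries (-0.15 to 0.25). Slc6a9, the glycine transporter GlyT1, was at 99.3 and 89.4 CPM in cKO libraries and at 99.6 and 99.3 CPM in WT libraries (-0.25 to 0.10). All 3 intervals held 0, which does not show that the levels were equal. Reads of Slc7a10 and Slc6a9 may include those of antisense neighbours, Lrp3 (17.9% of Slc7a10 exon bases) and Ccdc24 (27.8% of Slc6a9 exon bases), since no source used here states whether the counting used strand.

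Members of gap junctions, water and ion handling had 2 falls among 8 and none higher (median -0.19), with 6 lower and none higher at an unadjusted p under 0.05. DESeq2 called 1 of the 8 lower and none higher. Gjb6 encodes connexin 30, which with connexin 43 couples astrocytes to each other. It was at 48.2 and 44.2 CPM in cKO 1 and cKO 2, against 59.8 and 58.1 CPM in WT 1 and WT 2 (-0.35 ± 0.10, adjusted p = 0.0481). The groups did not overlap, but the call was lost under DESeq2, DESeq2 size factors and library size alone. Gja1, which encodes connexin 43, was at 197 and 182 CPM in cKO libraries and at 218 and 213 CPM in WT libraries, without passing the test (-0.18, adjusted p = 0.186).

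Atp1b2 encodes the beta-2 subunit of the sodium-potassium pump, first described as an adhesion molecule on glia. It was at 961 and 966 CPM in cKO 1 and cKO 2, against 1152 and 1190 CPM in WT 1 and WT 2. The 2 cKO libraries were almost equal and the groups did not overlap (-0.28 ± 0.07, adjusted p = 0.0171). Atp1b2 kept its call without WT 1 and lost it without each of the other libraries.

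The remaining members of this role did not pass. Hepacam, a cell adhesion protein that partners Mlc1, was at 123 and 111 CPM in cKO libraries and at 139 and 134 CPM in WT libraries (-0.22, adjusted p = 0.135). Slc4a4, a sodium bicarbonate cotransporter, was at 596 and 570 CPM in cKO libraries and at 666 and 635 CPM in WT libraries (-0.16, adjusted p = 0.257). Ttyh1, a membrane protein of the tweety family, was at 537 and 441 CPM in cKO libraries and at 574 and 552 CPM in WT libraries (-0.20, adjusted p = 0.197). For these 3 genes and Gja1 the groups did not overlap, and the 95% intervals before adjustment excluded 0.

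For the last 2 members of this role, Aqp4 and Mlc1, the groups overlapped. Aqp4, the water channel of astrocyte end-feet, was at 503 and 554 CPM in cKO libraries and at 485 and 547 CPM in WT libraries (95% interval -0.12 to 0.19). Mlc1, a membrane protein of the same contacts around vessels, was at 165 and 143 CPM in cKO libraries and at 154 and 165 CPM in WT libraries (-0.22 to 0.12). The sign of both changed when single libraries were left out.

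**Figure D2:**
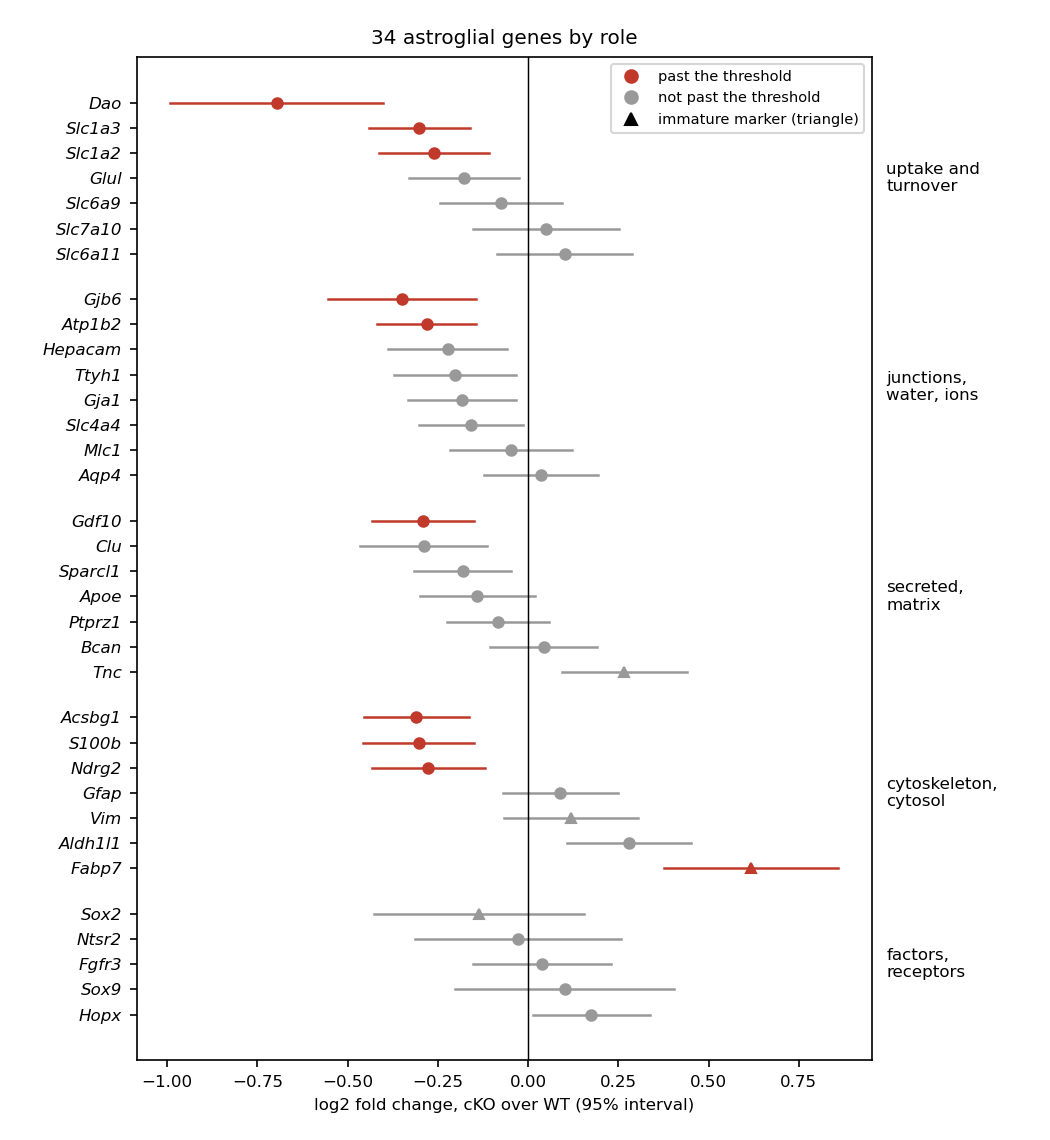
Log2 fold change (Kdm6b-cKO over WT) of the 34 members by role, with 95% intervals from the edgeR fit. Red symbols are the 10 members past the threshold, grey ones the 24 that did not pass, and triangles the 4 immature markers; of the 24, 7 intervals lie below 0, 3 lie above 0 and 14 hold 0.

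Among 7 secreted, matrix and lipoprotein members 1 fell and none rose (median -0.14), and at an unadjusted p under 0.05 there were 3 lower and 1 higher. DESeq2 likewise called 1 lower and none higher. Gdf10, a ligand of the BMP family that marks Bergmann glia in the cerebellum, was at 393 and 384 CPM in cKO 1 and cKO 2, against 473 and 479 CPM in WT 1 and WT 2. The spread within each group was small and the groups did not overlap (-0.29 ± 0.07, adjusted p = 0.0158). With single libraries left out the value stayed between -0.31 and -0.27, though the call was lost each time.

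Clu, which encodes the secreted chaperone clusterin, was at 188 and 154 CPM in cKO libraries and at 216 and 203 CPM in WT libraries. It did not pass (-0.29 ± 0.08, adjusted p = 0.0565). Sparcl1, a matrix protein that promotes synapse formation, was the most abundant member, at 1598 and 1489 CPM in cKO libraries and at 1756 and 1745 CPM in WT libraries (-0.18, adjusted p = 0.137). Apoe, the main lipoprotein of the brain, was at 1023 and 862 CPM in cKO libraries and at 1023 and 1054 CPM in WT libraries (-0.14, adjusted p = 0.390), so cKO 1 was level with WT 1 and cKO 2 was below both.

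The other 3 members of this role did not pass either. Bcan, the proteoglycan brevican, was at 224 and 208 CPM in cKO libraries and at 215 and 205 CPM in WT libraries (95% interval -0.11 to 0.19). Ptprz1, a receptor phosphatase of radial glia and astrocytes, was at 388 and 396 CPM in cKO libraries and at 416 and 413 CPM in WT libraries (-0.22 to 0.06). Tnc, the matrix protein tenascin C of immature glia, was at 86.1 and 93.4 CPM in cKO libraries and at 76.7 and 72.5 CPM in WT libraries, without overlap, but did not pass (0.27 ± 0.08, adjusted p = 0.0808).

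The 7 cytoskeletal and cytosolic members held both directions, with 3 falls and 1 rise (median 0.09). At an unadjusted p under 0.05, 3 were lower and 2 higher (Fabp7 and the mature member Aldh1l1). DESeq2 called 2 of the 7 lower and none higher. Fabp7, the brain lipid-binding protein of radial glia and young Bergmann glia, was at 114 and 166 CPM in cKO 1 and cKO 2, against 89.2 and 92.9 CPM in WT 1 and WT 2. It rose by 0.62 ± 0.12 on the log2 scale (95% interval 0.38 to 0.86, adjusted p = 0.00298), or 53.4%. The cKO libraries were both higher but far from equal, and the value was 0.87 without cKO 1 and 0.33 without cKO 2. Over the 12 alternatives its adjusted p ran from 2.33e-08 to 0.493, and DESeq2 did not call it.

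S100b, a calcium-binding protein of astrocytes, was at 147 and 137 CPM in cKO 1 and cKO 2, against 175 and 176 CPM in WT 1 and WT 2 (-0.30 ± 0.07, adjusted p = 0.0229). Acsbg1, an acyl-CoA synthetase of astroglial lipid metabolism, was at 216 and 199 CPM in cKO 1 and cKO 2, against 260 and 254 CPM in WT 1 and WT 2 (-0.31 ± 0.07, adjusted p = 0.0131). Ndrg2, a cytosolic protein of mature astrocytes, was at 564 and 493 CPM in cKO 1 and cKO 2, against 660 and 619 CPM in WT 1 and WT 2 (-0.28 ± 0.08, adjusted p = 0.0420). In all 3 genes both cKO libraries lay below both WT libraries, with cKO 2 the lowest. Without cKO 2 the Ndrg2 value was -0.18.

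The other 3 members of this role, Gfap, Aldh1l1 and Vim, did not pass the test. Gfap, the intermediate filament of astrocytes, was at 339 and 359 CPM in cKO libraries and at 304 and 353 CPM in WT libraries, with overlapping groups (95% interval -0.07 to 0.25). Aldh1l1, a folate enzyme used as a general astrocyte marker, was at 95.7 and 98.5 CPM in cKO libraries and at 75.9 and 83.9 CPM in WT libraries. These groups did not overlap, yet the gene did not pass (0.28 ± 0.08, adjusted p = 0.0608), and 11% of its exon bases are shared with the antisense gene Gm15756. Vim, the intermediate filament vimentin of radial glia, was at 128 and 157 CPM in cKO libraries and at 127 and 134 CPM in WT libraries (95% interval -0.07 to 0.30), so that only cKO 2 stood above WT.

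No transcription factor or receptor among the 5 listed passed by edgeR or DESeq2 (median 0.04), and 1 was higher at an unadjusted p under 0.05. That gene was Hopx, a homeodomain-only protein known from Bergmann glia, at 135 and 130 CPM in cKO libraries and 113 and 122 CPM in WT libraries (0.18, adjusted p = 0.262). Its groups did not overlap, and 27.2% of its exon bases are shared with the antisense gene Hopxos. Sox9, a factor that specifies glia, was at 29.3 and 26.9 CPM in cKO libraries and at 30.4 and 22.0 CPM in WT libraries (95% interval -0.20 to 0.40). Sox2, a factor of neural stem cells that Bergmann glia keep, was at 23.2 and 20.1 CPM in cKO libraries and at 24.3 and 23.3 CPM in WT libraries (-0.43 to 0.15).

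The receptors of this group did not pass either. Fgfr3, a fibroblast growth factor receptor of astroglia, was at 82.7 and 69.6 CPM in cKO libraries and at 74.8 and 73.6 CPM in WT libraries (95% interval -0.15 to 0.23), and 13.9% of its exon bases are shared with the antisense gene G630022F23Rik. Ntsr2, a neurotensin receptor of astrocytes, was at 26.2 and 35.8 CPM in cKO libraries and at 32.0 and 31.0 CPM in WT libraries (-0.31 to 0.26). For both genes the cKO libraries lay on either side of the WT libraries, and the interval of Ntsr2 was among the widest of the list.

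The mature and the immature members were also taken apart. Of the 30 mature members 9 fell and none rose (median log2 fold change -0.17). At an unadjusted p under 0.05, 16 mature members were lower and 2 higher, where 8.5% of all genes were lower and 7.81% higher, and DESeq2 called 7 lower and none higher. With scaling by library size alone the mature member Aldh1l1 was called higher, and Slc1a2, Gjb6 and Ndrg2 were not called. Of the 4 immature members 1 rose and none fell (median 0.19), with 2 higher and none lower at an unadjusted p under 0.05. DESeq2 called none of the 4. The least affected of the 9 fell by 16.5% and the most affected, Dao, fell by 38.3%.

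Each cKO library was then set against the WT mean. Of the mature members 19 were below the WT mean in both cKO libraries and 6 were above it in both. Of all 16617 genes tested, 5712 were below it in both and 5665 above it in both. The 2 ratios of a gene share 1 WT mean and so are not independent. The mature members had a median log2 ratio of -0.11 in cKO 1 and -0.24 in cKO 2, against -0.0014 and -0.00062 over all genes. By this median both animals leaned the same way and cKO 2 leaned further. The immature members had medians of 0.08 in cKO 1 and 0.29 in cKO 2. Over all 34 members, cKO 2 was below cKO 1 in 24, including 7 of the 9 that fell. Over all 16617 genes tested, cKO 2 was below cKO 1 in 8294.

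**Figure D3:**
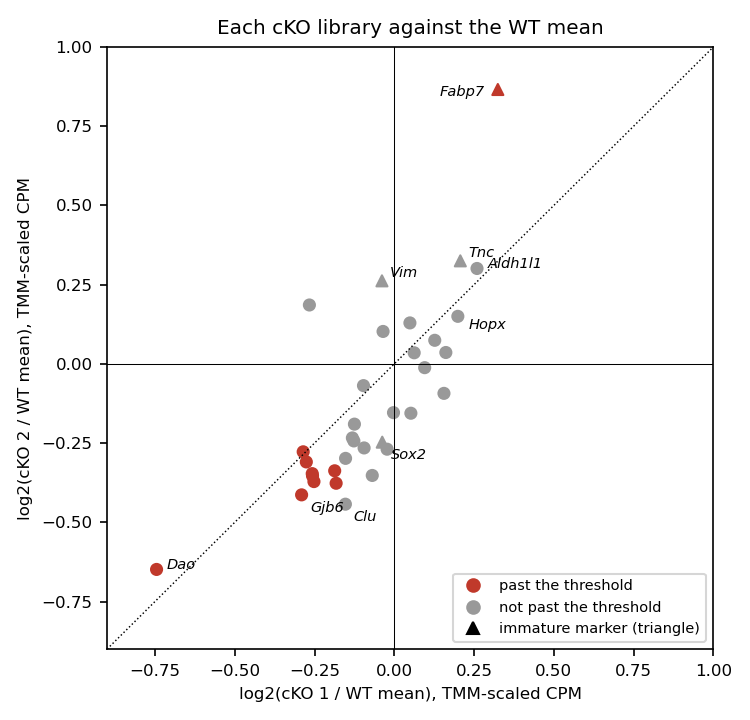
Log2 ratio of each member's level (TMM-scaled CPM) to the WT mean, in cKO 1 (horizontal axis) and cKO 2 (vertical axis). Red symbols are past the threshold, triangles are the 4 immature markers, and the dotted line marks equal ratios. Of the 30 mature members 19 lie in the lower left and 6 in the upper right. Fabp7 lies furthest out of the 8 members in the upper right, and Dao furthest out in the lower left.

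Summed levels showed the same lean in units of RNA. The mature members together made up 11554 and 10787 CPM in cKO 1 and cKO 2, against 12767 and 12607 CPM in WT 1 and WT 2. The immature members together made up 351 and 436 CPM in cKO 1 and cKO 2, against 318 and 323 CPM in WT 1 and WT 2. Immature members thus stood at 3.04% and 4.05% of the mature sum in cKO 1 and cKO 2, and at 2.49% and 2.56% in WT 1 and WT 2. Much of this came from Fabp7, which was 32.5% and 38.0% of the immature sum in cKO 1 and cKO 2. Its share was 28.1% and 28.7% in WT 1 and WT 2. Among the other immature members Tnc was higher without passing, the groups of Vim overlapped, and Sox2 was lower in both cKO libraries. These sums are descriptions: with 2 libraries a group the smallest p that an exact two-sided permutation test allows is 0.333.

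Levels between members were compared per kilobase of exon. On this scale (TMM-scaled CPM per kilobase) the members spanned 94.0-fold in WT, and Sparcl1 was the highest, at 525 in cKO and 596 in WT. Apoe followed with 441 in cKO and 486 in WT. Fabp7 stood seventh among members in cKO, with a level of 112, and in the 13th place in WT, with 72.8. Dao took the last place in cKO and the 30th in WT.

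Other astroglial genes, listed separately from the 34, leaned the same way as the mature members. Of 52 further astroglial genes tested 11 fell and 1 rose (median -0.13), which is 21.2% and 1.92% of them. Among all genes tested 2.17% were lower and 1.87% higher. This list, too, was chosen with earlier results of these data known. DESeq2 called 5 of the 52 lower and none higher, and edgeR called none of these genes without cKO 1 or without cKO 2. Fam107a, an actin-associated protein of astrocytes and radial glia, was at 626 and 515 CPM in cKO 1 and cKO 2, against 944 and 800 CPM in WT 1 and WT 2 (-0.61 ± 0.09, adjusted p = 0.000260). Mt1, a metallothionein that binds zinc and copper, was at 111 and 127 CPM in cKO 1 and cKO 2, against 177 and 157 CPM in WT 1 and WT 2 (-0.49 ± 0.08, adjusted p = 0.00129). For both genes the groups did not overlap.

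Paqr6, a membrane progestin receptor, was at 17.0 and 14.3 CPM in cKO 1 and cKO 2, against 26.6 and 26.7 CPM in WT 1 and WT 2 (-0.76 ± 0.15, adjusted p = 0.00360). The one that rose was Slc15a2, the peptide transporter PEPT2, at 34.8 and 31.3 CPM in cKO 1 and cKO 2, against 6.15 and 19.4 CPM in WT 1 and WT 2 (1.37 ± 0.26, adjusted p = 0.00331). Its WT libraries were far apart, with WT 1 much the lower, and the value was 0.77 without WT 1 and 2.42 without WT 2. Of 13 further genes of immature glia 1 rose and none fell (median 0.13), with 3 higher and 1 lower at an unadjusted p under 0.05 (7.81% and 8.5% of all genes) and none called by DESeq2. The one that rose was Notch2, a Notch receptor of glia, at 54.0 and 51.1 CPM in cKO 1 and cKO 2, against 39.2 and 42.0 CPM in WT 1 and WT 2 (0.37 ± 0.10, adjusted p = 0.0442).

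Markers of other cells moved with the same libraries, and their part in the values of the members was not tested. Genes of granule neuron progenitors and cycling cells summed to 214 and 339 CPM in cKO 1 and cKO 2, against 142 and 167 CPM in WT 1 and WT 2, with 5 of 7 genes higher by edgeR. Genes of newborn granule neurons summed to 1994 and 2463 CPM in cKO libraries and to 1506 and 1638 CPM in WT libraries, with 6 of 8 higher. Both sums were highest in cKO 2, as was Fabp7. Genes of mature granule neurons summed to 5679 and 5066 CPM in cKO libraries and to 6509 and 6690 CPM in WT libraries, with 7 of 10 lower. Purkinje cell genes summed to 4969 and 4649 CPM in cKO libraries and to 5320 and 5242 CPM in WT libraries, with 1 of 6 lower (Ppp1r17) and 1 higher (Slc1a6). The mature granule and Purkinje sums were lowest in cKO 2, as was the sum of the mature astroglial members. Fewer of these genes were called by DESeq2. It called 1 of the 7 progenitor and cycling genes and 4 of the 8 newborn genes higher, and none lower. Of the 10 mature granule genes it called 5 lower and 1 higher, and of the 6 Purkinje genes 1 higher and none lower.

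Oligodendrocyte genes summed to 9548 and 9584 CPM in cKO libraries and to 10907 and 10392 CPM in WT libraries, with 2 of 9 lower and 1 higher. Those of microglia, with none of 7 called and 1 lower at an unadjusted p under 0.05, summed to 118 and 130 CPM in cKO libraries and to 130 and 128 CPM in WT libraries. Endothelial and mural genes, with none of 7 called or past an unadjusted p of 0.05, summed to 310 and 312 CPM in cKO libraries and to 315 and 320 CPM in WT libraries. DESeq2 called 1 of the 9 oligodendrocyte genes lower, and none of the microglial, endothelial or mural genes. Genes of oligodendrocyte precursors summed to 399 and 459 CPM in cKO libraries and to 419 and 406 CPM in WT libraries. Of these 6 genes 1 was higher and 1 lower by edgeR. Meningeal fibroblast genes summed to 188 and 193 CPM in cKO libraries and to 167 and 189 CPM in WT libraries. None of these 6 was called by edgeR, and DESeq2 called no gene of either list. Choroid plexus genes had their highest sum in cKO 1 and summed to 42.9 CPM in cKO 2. Of 6 tested, 3 were called higher by edgeR and 1 by DESeq2, with none lower. Ttr was at 609 CPM in cKO 1 and 13.9 CPM in cKO 2, against 1.73 and 0.108 CPM in WT 1 and WT 2. Both cKO libraries thus held more Ttr than both WT libraries. The part of choroid tissue in the values of the members was not tested.

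**Figure D4:**
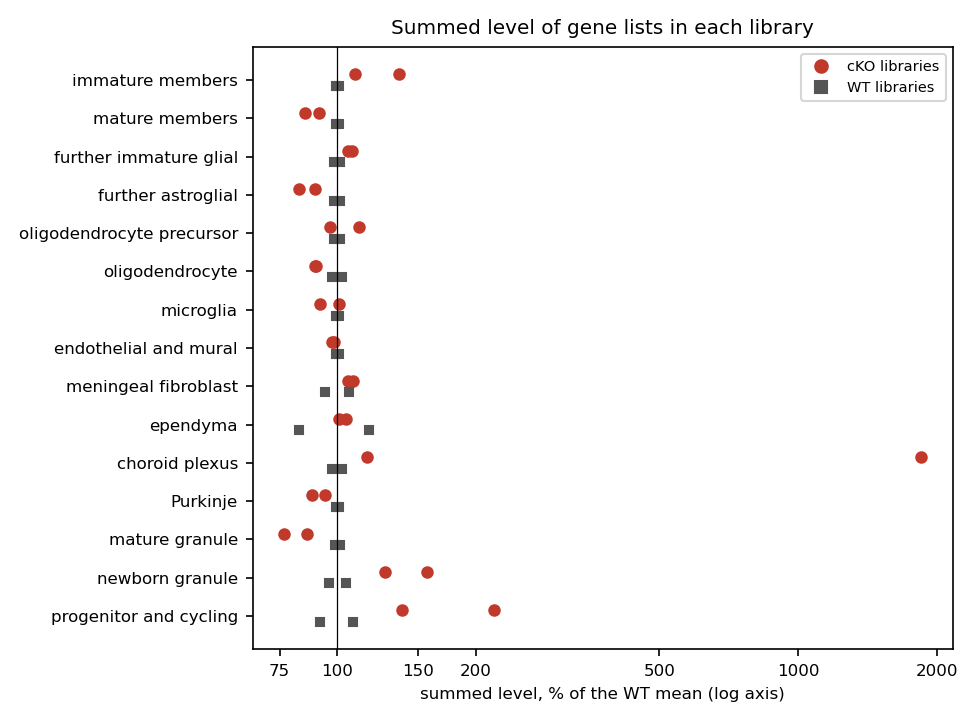
Summed level of each gene list in each library as a percentage of the WT mean (log axis), with the Kdm6b-cKO libraries as red circles and the WT libraries as grey squares. The mature members lie at 91.1% and 85.0% in cKO 1 and cKO 2, the immature members at 109% and 136%, the progenitor and cycling genes at 138% and 219%, and the choroid plexus genes at 1849% in cKO 1.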

How the data were processed

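The authors trimmed reads with Trimmomatic 0.38 and aligned them to mm10 with STAR 2.7.2b, by the submitters' processing notes, and counted them per gene over exons with HTSeq. The authors deposited raw counts as whole numbers, 1 file per library with 1 line per gene symbol. Whether counting used strand is not stated in the sources used. Genes took 39.0% to 40.5% of all deposited counts, and the rest stood in the 5 summary lines without a gene. Those lines entered neither library sizes nor tests. GENCODE M21 on GRCm38 gave identifiers and exon lengths.

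Genes passing filterByExpr of edgeR 4.0.16 (R 4.3.3) were scaled by TMM (factors 0.986 to 1.02), and the genotypes were compared by glmQLFit and glmQLFTest (two-sided) with Benjamini-Hochberg adjustment over 16617 genes and a threshold of 0.05. The biological coefficient of variation was 7.33%. The replicates of a group were not copies of each other (chi-square divided by its degrees of freedom was 4.04 in cKO and 3.72 in WT). Titles gave the groups and the replicate numbers, also where a description disagreed on the number. Alternatives were DESeq2 1.42.0, limma-voom (limma 3.58.1), other scalings, other filters, a replicate block and leaving out each library.

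The members and lists were chosen with earlier results of these data known. All 34 members are named. Of the further lists up to 3 genes past the threshold per direction, those with the smallest p, are named, and Kdm6b as the targeted gene. Ttr, Ppp1r17 and Slc1a6 were named after their values were seen. Promoters are shown only for members past the threshold.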

Additional observations from a re-analysis of the deposited data

How the results depend on the processing

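Both medians kept their sign under all 12 alternatives, between -0.24 and -0.11 for the mature members and between 0.09 and 0.29 for the immature ones, with both extremes set by leaving out cKO 1 or cKO 2. The counts of calls moved far more, and the cause was not tested. Without the filter on low counts (28952 genes) 0 members, 3 further glial genes and 177 genes in all were called. DESeq2 called 5 further genes and 320 in all, where edgeR called 13 and 671. With single libraries left out, calls ranged from 0 to 4 members, 0 to 9 further genes and 0 to 507 genes in all. In these fits the spread of a lone library was taken from the other group. The libraries share replicate numbers, and the labels do not say which animals shared a litter. The correlation of same-numbered deviations was 0.0423 over 16617 genes. It cannot decide on pairing, because the WT libraries also differed in sex and the cKO libraries in choroid plexus genes. A replicate block called 14 members, 20 further genes and 1130 genes. Scaling by library size alone made 40.2% of all calls lower and upper-quartile scaling 63.0%, against 53.8% with TMM. Library size alone called 3 members higher (Fabp7, Aldh1l1 and Tnc) and 6 lower, and upper-quartile scaling 1 higher and 10 lower, against 1 and 9 with TMM.

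Of the 120 values of called members under alternatives, 68 kept their call and 52 lost it, and none changed sign. Of the 288 values of the other 24 members, 7 passed the threshold and 11 changed sign. With single libraries left out, those values ran from -0.049 to 0.13 for Aqp4, from -0.014 to 0.20 for Gfap, from -0.15 to 0.054 for Mlc1, from -0.037 to 0.26 for Vim, from -0.11 to 0.35 for Sox9, from -0.092 to 0.16 for Fgfr3, from -0.011 to 0.097 for Bcan and from -0.26 to 0.19 for Ntsr2. Mlc1 also changed sign without WT 2 (0.0063), Aqp4 without cKO 2 (-0.033) and Ntsr2 under library size alone (0.0035). The lowest count of a member in a library was 177, and limits by depth were not tested.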

Other observations

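Ratios between members within a library differed between the groups without overlap for each pair given here. With 2 libraries a group, the smallest p of an exact two-sided permutation test is 0.333. Levels of single genes separated for 23.2% of all genes tested in each direction, and no such share was computed for ratios. The ratios are built from the levels given above and are not independent of those results. Gdf10 stood at 292% and 295% of the Hopx level in cKO 1 and cKO 2, against 420% and 393% in WT 1 and WT 2, although both mark Bergmann glia. Gjb6, which encodes connexin 30, was at 24.4% and 24.3% of Gja1, its connexin 43 partner, in cKO 1 and cKO 2, against 27.4% and 27.3% in WT 1 and WT 2. Slc1a3 was at 259% and 222% of Aqp4 in cKO 1 and cKO 2, against 333% and 275% in WT 1 and WT 2. Fabp7 was at 8.73% and 13.5% of Slc1a3 in cKO 1 and cKO 2, against 5.52% and 6.16% in WT 1 and WT 2.

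The pair of glutamate transporters kept a closer ratio, though its groups did not overlap either. Slc1a3 was at 156.26% and 163.06% of Slc1a2 in cKO 1 and cKO 2, against 163.10% and 165.13% in WT 1 and WT 2. These ratios compare levels per library, do not depend on the scaling between libraries, and were not tested.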
